A study of Drosophila melanogaster with 2 samples.

Results

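The peaks described here are sites of the tagged tx protein that lie inside introns and far from promoters. They are the dm6 optimal IDR peaks (the set kept by the irreproducible discovery rate) whose summit lay more than 1000 bp from every protein-coding transcription start site (TSS), inside a gene body and outside every annotated exon. There were 725 of them among 3102 peaks (23.4%, 95% Wilson interval 21.9 to 24.9%). Another 2014 peaks had a summit within 1000 bp of a TSS, and these are called promoter peaks, while 283 were intergenic and 80 lay in exons. The data are chromatin immunoprecipitation with sequencing (ChIP-seq) from 2 biological replicates of 1 group, whole Drosophila melanogaster embryos of mixed sex aged 0 to 24 h. All embryos came from the transgenic line tx-GFP, which expresses a tx-eGFP fusion with the tag at the C-terminus of tx, and the chromatin, sheared to 200 to 800 bp, was precipitated with an antibody against GFP. The deposited files' accompanying text gives 1 control for both replicates. No untagged embryos were analysed here. Whole embryos mix every cell type, so strong binding in few cells and weak binding in many cannot be told apart, and a tagged transgene need not report the endogenous protein in full.

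The gene tx, also called taxi or delilah, encodes a transcription factor of the basic helix-loop-helix (bHLH) family, known from tendon cells, to which muscles attach, and from the wing. Proteins of the bHLH family bind DNA as dimers at the E-box, a short palindrome-like word written CANNTG. Introns of Drosophila genes, above all long introns near the 5′ end of developmental genes, often hold enhancers, which are stretches of DNA where transcription factors bind and set when and where a gene is transcribed. A peak in an intron shows where the tagged protein was recovered, not which gene it acts on.

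The sequences at 12 of these summits are printed because they stand for the strongest intronic peaks and for the clusters in 3 of the hosts with most of them. The first 6 are windows of 100 bp to each side of summits of high signal, taken in order of signal where the window met no annotated exon, which left out the second strongest peak, in CG11050. The other 6 come from ush, Raf and Hr4. All are read 5′ to 3′ on the plus strand of the Release 6 genome of RefSeq. Capitals mark the E-box CANNTG and the 5-letter word CACTG on either strand. The word CACTG was added after its frequency in these peaks had been seen. An E-box stood in 2 of the 12 windows, those of Raf summit 3 and Hr4 summit 2. Over all 725 intronic peaks 65.0% held one within 100 bp of the summit, so these 12 are not typical in this.
ush summit 1, chr2L:480964-481164, plus strand: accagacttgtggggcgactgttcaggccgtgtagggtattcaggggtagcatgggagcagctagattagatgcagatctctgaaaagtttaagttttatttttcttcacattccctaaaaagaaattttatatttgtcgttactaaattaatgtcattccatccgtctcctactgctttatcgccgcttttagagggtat
CG32772 summit 1, chrX:4910264-4910464, plus strand: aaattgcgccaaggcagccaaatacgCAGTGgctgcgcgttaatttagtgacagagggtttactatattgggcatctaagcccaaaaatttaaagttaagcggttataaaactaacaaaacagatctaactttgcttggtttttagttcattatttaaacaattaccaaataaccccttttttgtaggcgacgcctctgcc
CG3726 summit 1, chrX:5918811-5919011, plus strand: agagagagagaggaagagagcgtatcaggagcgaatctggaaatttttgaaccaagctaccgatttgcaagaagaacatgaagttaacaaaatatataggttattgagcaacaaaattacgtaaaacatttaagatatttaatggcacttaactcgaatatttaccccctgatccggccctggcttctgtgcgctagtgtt
Tlk summit 1, chrX:3742133-3742333, plus strand: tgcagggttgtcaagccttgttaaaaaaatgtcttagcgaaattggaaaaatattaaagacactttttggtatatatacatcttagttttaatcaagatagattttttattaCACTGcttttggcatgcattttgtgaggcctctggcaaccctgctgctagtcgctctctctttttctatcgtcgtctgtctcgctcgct
Raf summit 1, chrX:2297632-2297832, plus strand: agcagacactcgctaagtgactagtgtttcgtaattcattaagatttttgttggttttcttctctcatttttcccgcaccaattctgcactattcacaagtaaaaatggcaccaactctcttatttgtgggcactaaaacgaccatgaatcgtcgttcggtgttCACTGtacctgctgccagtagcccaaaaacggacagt
Trl summit 1, chr3L:14759386-14759586, plus strand: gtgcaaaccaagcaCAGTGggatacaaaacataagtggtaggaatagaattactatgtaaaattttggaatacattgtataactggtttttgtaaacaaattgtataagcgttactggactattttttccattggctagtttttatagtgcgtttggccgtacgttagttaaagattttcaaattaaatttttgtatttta
ush summit 2, chr2L:485763-485963, plus strand: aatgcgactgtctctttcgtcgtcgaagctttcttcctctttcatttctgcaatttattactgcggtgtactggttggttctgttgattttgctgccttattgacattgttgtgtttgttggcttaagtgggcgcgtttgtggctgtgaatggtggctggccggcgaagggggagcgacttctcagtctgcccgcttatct
ush summit 3, chr2L:520727-520927, plus strand: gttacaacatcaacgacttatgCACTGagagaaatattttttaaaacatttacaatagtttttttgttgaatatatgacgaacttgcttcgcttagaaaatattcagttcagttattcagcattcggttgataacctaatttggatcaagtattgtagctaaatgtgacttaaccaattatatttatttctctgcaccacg
Raf summit 2, chrX:2303997-2304197, plus strand: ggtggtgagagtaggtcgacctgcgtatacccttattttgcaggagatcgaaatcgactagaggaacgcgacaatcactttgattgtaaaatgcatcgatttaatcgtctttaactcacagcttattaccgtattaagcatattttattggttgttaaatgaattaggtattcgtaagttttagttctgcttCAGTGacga
Raf summit 3, chrX:2300601-2300801, plus strand: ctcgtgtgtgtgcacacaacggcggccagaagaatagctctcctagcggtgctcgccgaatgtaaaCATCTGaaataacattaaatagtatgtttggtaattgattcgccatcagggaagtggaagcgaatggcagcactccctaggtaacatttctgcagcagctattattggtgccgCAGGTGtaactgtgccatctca
Hr4 summit 1, chrX:1951794-1951994, plus strand: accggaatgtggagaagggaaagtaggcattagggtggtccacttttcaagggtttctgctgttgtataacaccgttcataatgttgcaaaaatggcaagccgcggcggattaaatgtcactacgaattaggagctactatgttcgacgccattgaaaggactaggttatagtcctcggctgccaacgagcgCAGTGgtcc
Hr4 summit 2, chrX:1947648-1947848, plus strand: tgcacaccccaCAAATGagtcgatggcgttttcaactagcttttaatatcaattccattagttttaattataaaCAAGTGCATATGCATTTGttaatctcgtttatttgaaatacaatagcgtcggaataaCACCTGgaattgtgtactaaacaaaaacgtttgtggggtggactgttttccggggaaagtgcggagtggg

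The GC content of these windows ran from 29.9% in Trl to 48.8% in ush summit 2. The strongest of these peaks, in ush, held neither an E-box nor CACTG within 100 bp. Hr4 summit 2 held 5 E-boxes, of which 3 stand end to end in CAAGTGCATATGCATTTG. The word CACTG or its reverse complement stood in 7 of the 12 windows. Over all 725 intronic peaks 25.7% held it within 50 bp of the summit. That window is narrower, so whether 7 of 12 is typical cannot be told from it.

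The strongest intronic peak lay in the first intron of ush, which encodes U-shaped, a cofactor of GATA transcription factors. Its authors' signal was 1421, the second highest of all 3102 peaks, and it ranked 1 in replicate 1 and 2 in replicate 2. Its summit was 1376 bp from the TSS of cbt, the gene of the zinc finger protein Cabut, and 4733 bp into an intron of 49060 bp. The next peak stood at CG11050, with a signal of 956 and ranks of 5 and 16. It lay in an intron of only 140 bp, 1018 bp from a TSS, so it barely met the distance rule. Then came CG32772 with a signal of 720 and ranks of 23 and 17. After these 3 the signal dropped to 529 at CG3726, 516 at Tlk, the Tousled-like kinase, and 477 at Raf, the kinase below Ras in the receptor tyrosine kinase pathway.

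Among the 20 strongest intronic peaks were peaks in genes of signalling and of chromatin. Trl, which encodes the GAGA factor, held one of signal 470 that ranked 48 and 60 in replicates 1 and 2. NFAT, named for calcium-regulated transcription factors of mammals, held one of signal 420 with ranks 65 and 76. In norpA, the phospholipase C of phototransduction, the signal was 398 and the ranks were 97 and 51. The list went on with for, a cGMP-dependent protein kinase, at 385, Gug, the corepressor Atrophin, at 310, and aos, the secreted inhibitor of the EGF receptor, at 281. Metabolic enzymes were there too. Prps, which makes phosphoribosyl pyrophosphate, had 378, and Zw, glucose-6-phosphate dehydrogenase, had 351. The others were CG9837 (461), CG32486 (453), Su(Tpl), a subunit of an elongation complex (305), Pits (297), CG12769 (272) and Csk, a kinase that inhibits Src (265). All 20 were found in both replicates, and their lowest ranks were 154 in replicate 1 and 268 in replicate 2.

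Most intronic peaks were far weaker than these. The signal ran from 58.6 to 1421 with a median of 87.2 and quartiles of 69.6 and 122. Promoter peaks had a median of 93.5 and intergenic peaks 87.6. Intronic peaks were a smaller share of the top of the set than of its bulk, a difference that was not tested. They made up 14 of the 100 strongest peaks (14%, interval 8.53 to 22.1%) and 34 of the next 210 (16.2%, interval 11.8 to 21.8%). Of the 931 peaks ranked 621 to 1551 they made up 226 (24.3%, interval 21.6 to 27.1%), of those ranked 1552 to 2482 they made up 240 (25.8%, interval 23.1 to 28.7%), and of the last 620 they made up 154 (24.8%, interval 21.6 to 28.4%). The interval of the first 100 overlapped narrowly with those of ranks 621 to 1551 and of the last 620.

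Most intronic sites were recorded in both replicates, less often so towards the weak end. A peak was matched when a replicate's list of 30000 had a summit within 100 bp. Replicate 1 matched 710 of the 725 and replicate 2 matched 674, with 659 in both and none in neither. Among the 3102 strongest peaks of replicate 1 were 630 of them (86.9%), where 87.6% of all optimal IDR peaks were matched. Among those of replicate 2 were 547 (75.4%), against 74.9% of all peaks. In both at once were 467 (64.4%, interval 60.9 to 67.8%), against 65.2% of all peaks, so intronic sites were matched about as often as the set at large. Over the 659 peaks found in both lists the ranks had a Spearman correlation of 0.62, a description over sites that share their libraries and the control.

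**Figure D1:**
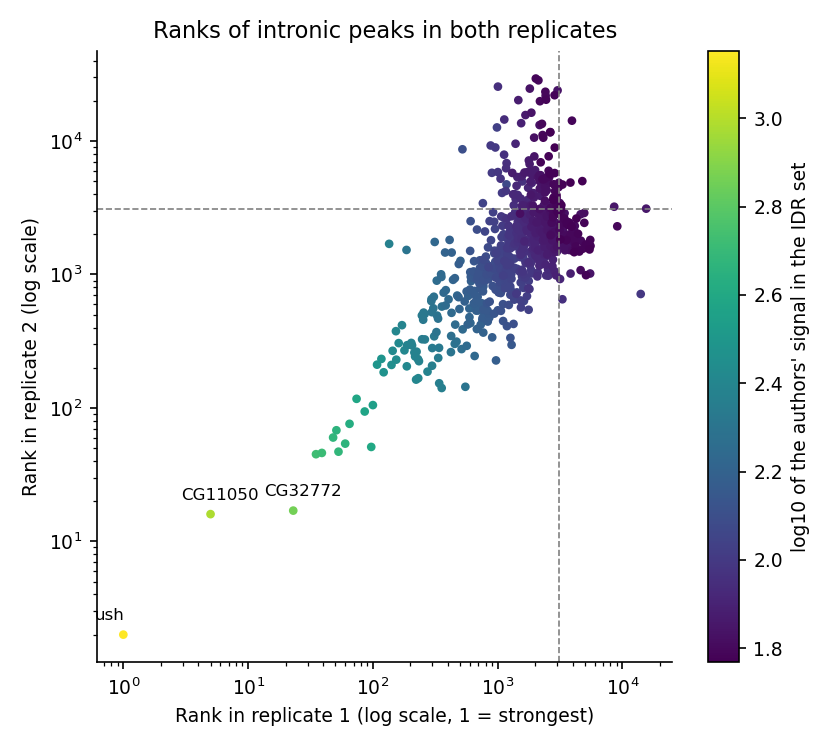
Rank of each of the 659 intronic peaks found in both replicates, replicate 1 on the horizontal and replicate 2 on the vertical axis, both on log scales with 1 as the strongest, coloured by the authors' signal. Dashed lines stand at rank 3102. The strong peaks lie along the diagonal, and the weak ones spread most widely in replicate 2.

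All of the 145 strongest intronic peaks were within the top 3102 of both replicates, whereas 16 of the 145 weakest were (11.03%, interval 6.91 to 17.2%). The optimal set was chosen on both replicates, so this agreement is in part built into it. The main densities and shares below are therefore also given for each replicate alone, using its own 3102 strongest peaks. By the same rule replicate 1 alone had 719 intronic peaks in 464 host genes and replicate 2 alone 780 in 502.

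First introns held most of these peaks. In the canonical transcript of the host, 387 lay in the first intron (53.4%, interval 49.7 to 57.0%), 224 in the second, 48 in the third and 66 in a later one. The DNA that could hold such a peak, called eligible here, was all intronic sequence over 1000 bp from a coding TSS and outside exons, 45.7 Mb in all, and 30.5% of it was in first introns. Per Mb of eligible DNA there were 27.7 peaks in first introns (exact Poisson interval 25.04 to 30.6), 18.1 in the second (15.9 to 20.7), 8.63 in the third (6.36 to 11.4) and 4.76 in later ones (3.68 to 6.06). Replicate 1 alone gave 27.8 per Mb in first introns and 4.62 in those past the third, and replicate 2 alone gave 28.6 and 6.35. The ratio of the first intron to those past the third was thus 6.02 in replicate 1 and 4.50 in replicate 2. All these intervals cover the counting of peaks only, and no test was made, since peaks are not replicates.

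Density also fell with distance from a promoter. The median summit was 3609 bp from the nearest coding TSS, where the median eligible base was 7214 bp away. Between 1000 and 1500 bp from a TSS there were 37.5 peaks per Mb (interval 31.2 to 44.7), between 5000 and 10000 bp 15.6 (13.2 to 18.2), and beyond 20000 bp 3.36 (2.31 to 4.72). Within the same distance class the order of introns still showed. From 1000 to 2000 bp first introns had 46.5 per Mb (39.1 to 54.8), second introns 31.0 (22.7 to 41.4) and those past the third 14.2 (7.76 to 23.8). From 2000 to 5000 bp the values were 30.6, 26.2 and 5.18. From 5000 to 10000 bp first and second introns had 20.5 (15.9 to 26.0) and 20.1 (15.4 to 25.9), while introns past the third had 6.35 (3.63 to 10.3). First and second introns had overlapping intervals at every distance. The interval of first introns lay above that of introns past the third in every class, and that of second introns did so from 2000 to 10000 bp.

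**Figure D2:**
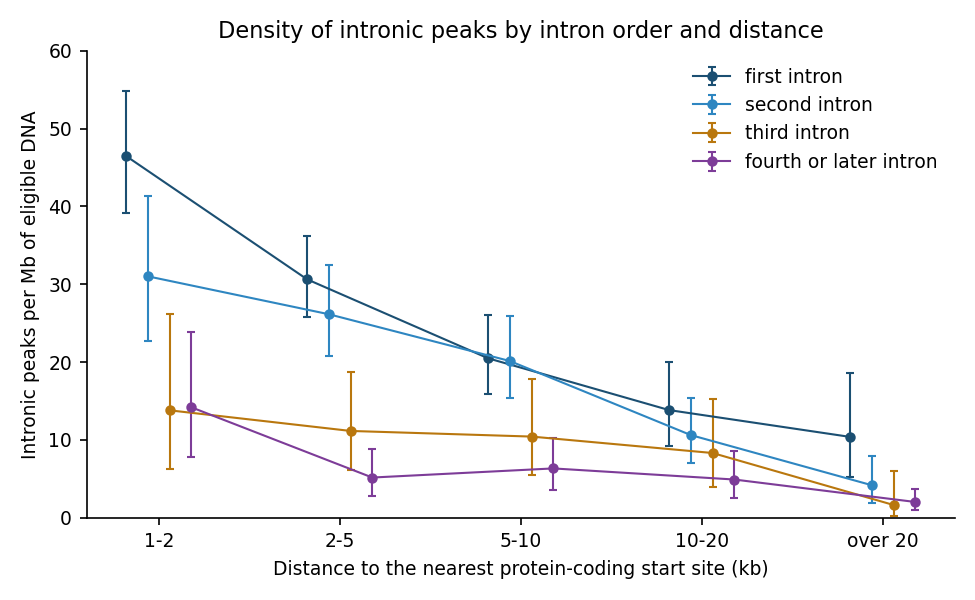
Intronic peaks per Mb of eligible DNA, by distance of the summit to the nearest protein-coding start site in kb (horizontal axis) and by order of the intron in its host (colours), with exact Poisson 95% intervals. Density falls with distance in first and second introns, from 46.5 to 10.4 and from 31.0 to 4.19. In introns past the third it is lower than in these at every distance, at 14.2 in the nearest class and 2.04 in the farthest.

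The introns were long, as were the introns that hold most eligible DNA. The intron that held a peak had a median length of 12604 bp (interval 11621 to 13736) and ranged from 117 to 126467 bp, while the median eligible base lay in an intron of 15278 bp. Density was highest in introns of 5 to 10 kb, with 22.3 peaks per Mb (18.8 to 26.3). That interval overlapped those of 2 to 5 kb (15.6 to 23.4) and of 10 to 20 kb (17.7 to 23.6). It was lowest in introns over 50 kb, with 8.15 (6.31 to 10.3), and in those up to 2 kb, with 8.32 (6.09 to 11.1). Short introns over 1000 bp from a TSS are mostly not first introns, and the 26 peaks in short first introns came to 39.6 per Mb (25.9 to 58.0). Along the intron the peaks lay somewhat towards its 5′ end. The first 20% of its length held 165 and the last 20% held 109, which is 18.3 (15.6 to 21.3) and 11.7 (9.61 to 14.1) per Mb. The nearest coding TSS belonged to the host in 561 cases (77.4%) and to another gene in 164, the ush peak near cbt among the latter.

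The peaks were spread over 471 host genes, of which 458 were protein-coding. These were 458 of the 6859 protein-coding genes with eligible DNA, or 6.68%. A single peak was held by 316 hosts, 2 peaks by 100, 3 by 34, and 4 or more by 21. Those 21 genes held 107 peaks (14.8%) in 2.27% of the eligible DNA. They were picked by their number of peaks, so a share of peaks above their share of DNA is built into the choice. Hosting rose with the length on offer, from 0.796% of genes with up to 2 kb of eligible DNA to 40.1% of genes with over 50 kb.

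Promoter peaks were more frequent in hosts than in other genes, a difference that was not tested. A peak within 1000 bp of an own TSS was present in 189 of the 458 coding hosts (41.3%, interval 36.8 to 45.8%) and in 1475 of the 6401 other genes with eligible DNA (23.0%, interval 22.0 to 24.1%). With 20 to 50 kb of eligible DNA the shares were 46.7% (38.1 to 55.5%) and 16.7% (12.9 to 21.3%), and with over 50 kb 41.8% (30.7 to 53.7%) and 12% (7.00 to 19.8%). In genes with up to 2 kb the intervals overlapped, at 33.3% (20.2 to 49.7%) and 24.3% (23.0 to 25.6%), and so they did with 5 to 10 kb, at 36.1% (26.0 to 47.6%) and 24.3% (20.5 to 28.5%). Expression of these genes was not measured here.

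Of the hosts, 6 held 7 peaks each: ush, Raf, Hr4, CHES-1-like, sbb and shn. In ush all 7 lay in the first intron, and their signals were 1421, 160, 129, 114, 85.2, 71.0 and 66.7. The neighbour closest to the strongest was that of 114, 817 bp away. In Raf all 7 were in the second intron of 43637 bp and were more even, at 477, 199, 190, 149, 144, 108 and 86.2. All 7 Raf peaks were among the top 3102 of both replicates, and 6 of them lay within 10194 bp of the 5′ end of that intron. Raf had 280 peaks per Mb of its eligible DNA, where all eligible DNA had 15.9. Raf is named here for its many peaks, so a high density is in part built in.

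Hr4, a nuclear receptor of the ecdysone response, held 5 peaks in its second intron and 2 further down, with 213 and 211 the highest and 63.2 the lowest signal. CHES-1-like, a forkhead factor, packed its 7 into a gene of 27.0 kb, so that it had the highest density of these 6 hosts, 589 per Mb. Its highest signal was 188 and 1 of its peaks had no match in replicate 2. In sbb, the corepressor scribbler, and shn, the zinc finger factor schnurri that acts below the signal Dpp, the highest signal was only 111 in each. The peaks of shn were nonetheless all 7 in the top 3102 of both replicates, whereas 4 of the 7 in sbb were. A high signal and many peaks thus met in ush, while sbb and shn had many peaks of low signal.

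**Figure D3:**
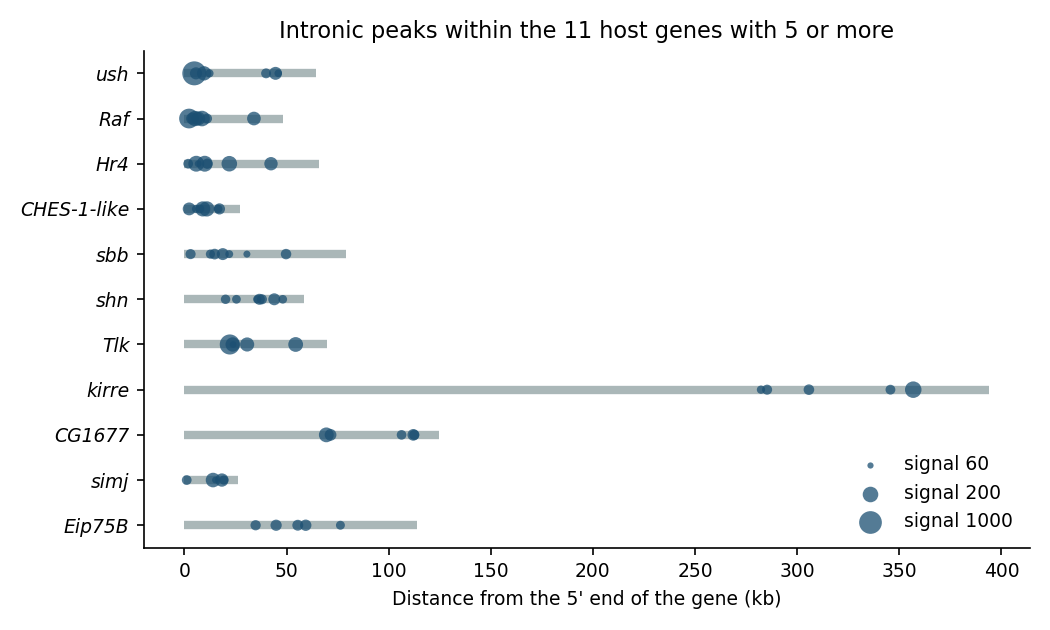
The 11 host genes with 5 or more intronic peaks, each drawn as a grey bar from its 5′ end, with its peaks as circles whose area grows with the log of the authors' signal. The horizontal axis is the distance from the 5′ end of the gene in kb. In Raf 6 of the 7 peaks lie near the 5′ end, with signals up to 477, the peaks of ush fall into a near and a far group, and those of kirre lie in the far part of a gene of 394 kb.

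With 5 peaks each came Tlk, kirre, CG1677, simj and Eip75B. In kirre, an immunoglobulin-type adhesion protein of myoblast fusion, all 5 were in the fifth intron, at signals of 239, 92.8, 86.7, 84.6 and 71.7. The weakest of these ranked 15498 in replicate 1 and 3114 in replicate 2. The other 5-peak hosts are simj, a subunit of the NuRD chromatin complex, with 168 as its highest signal, CG1677 with 174, and Eip75B, an ecdysone-induced nuclear receptor, with 103. In Eip75B only 2 of the 5 were in the top 3102 of both replicates, and its ranks in replicate 2 reached 6251. The 10 hosts with 4 peaks were CG32264, crp, mam, tara, CG12535, apt, msn, tou, CG46458 and Zdhhc8. Their strongest peaks ran from 88.5 in Zdhhc8 to 237 in CG32264. Among them mam encodes Mastermind, the coactivator of Notch, crp a bHLH leucine zipper factor, msn a kinase of the JNK pathway and Zdhhc8 a palmitoyltransferase.

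Pathway by pathway, the hosts were read against 16 gene lists, with 6.68% of all coding genes with eligible DNA as the base for hosting and 15.9 per Mb for density. That base for hosting is mostly genes with little eligible DNA, with a median of 0.581 kb, and it does not match lists of long genes: 14.1% of genes with 5 to 10 kb of eligible DNA were hosts, 22.2% with 10 to 20 kb and 28.5% with 20 to 50 kb. The lists are therefore read by their density. The base for density is not matched either. Over all eligible DNA, density fell from 37.5 per Mb at 1000 to 1500 bp from a TSS to 3.36 beyond 20000 bp. It fell from 27.7 in first introns to 4.76 in those past the third. What such differences between lists add to their densities was not tested. They were chosen with earlier results in view, and no list was tested. Of the 16 genes of Dpp and BMP signalling with eligible DNA, 7 were hosts, with 20 peaks or 87.3 per Mb (interval 53.3 to 135). Of these, 14 were in shn and sbb. The receptor gene wit held a peak of signal 173 that ranked 654 and 245, Dad, the inhibitory Smad, one of 172 that ranked 369 and 731, and cv-2, an extracellular modulator of BMP ligands, one of 158 that ranked 412 and 1816. The ligand gene dpp held 1 of signal 110. The receptor genes tkv and put and the Smad gene Mad held none.

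In the EGFR and Ras pathway 7 of 18 genes were hosts, with 18 peaks or 65.0 per Mb (38.5 to 103), 7 of them in Raf. The gene S encodes Star, which helps the ligand Spitz to be processed, and held 3 in its first intron, with signals of 248, 175 and 84.3, all in the top 3102 of both replicates. Besides Raf, aos and S the hosts were aop, the repressor Yan, with peaks of 210 and 85.8, pnt, the activator Pointed, with 135, 82.9 and 72.4, cic, the repressor Capicua, and vn, the ligand Vein. The peak in vn ranked 958 in replicate 1 but 8949 in replicate 2. The receptor gene Egfr and the ligand gene spi held none. Chromatin regulators had 7 hosts of 28 and 92.9 peaks per Mb (49.5 to 159), with 5 of their 13 peaks in simj. Apart from Trl and simj they were trx, with 262 and 78.9, osa with 152, ph-p, Psc and psq. The JAK-STAT list had 3 hosts of 12 (56.2 per Mb, 20.6 to 122): Socs36E and Ptp61F, which restrain the pathway, and ken. Neither the receptor gene dome, the kinase gene hop nor Stat92E held any.

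The list of hemocyte and GATA factors had 74.6 peaks per Mb, all of them in ush and CHES-1-like, and none in its other genes. Nuclear receptors and genes of the ecdysone response had 4 hosts of 19 (34.7 per Mb, 19.8 to 56.4), which were Hr4, Eip75B, EcR and ftz-f1. Of their 16 peaks, 7 were in Hr4. In the Notch list the hosts were N, with 1 peak of 210, mam and neur. In the Wnt list they were fz, arr and nkd, in the Hippo list kibra, ex and wts, and in the insulin list ImpL2 and InR. ImpL2, a secreted protein that binds insulin-like peptides, held peaks of 255 and 240. The intervals of these last 4 lists all included 15.9 per Mb.

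Because tx is known from tendon cells, genes of tendon and muscle were read as well. Of 17 genes of tendon and muscle attachment 5 were hosts (29.4%, interval 13.3 to 53.1%), and these 17 had a median of 15.9 kb of eligible DNA, a length at which 22.2% of all coding genes were hosts. They held 7 peaks or 21.8 per Mb (8.77 to 44.9), an interval that included 15.9. The integrin subunit gene mew held 3, with signals of 129, 107 and 84.7. Genes for the guidance signal sli, the RNA-binding protein how, the ligand vn and the tendon factor sr held 1 each, and that of sli was the strongest of these, at 119. Of 19 genes of somatic muscle 4 were hosts, kirre, mbc, Mef2 and rols, with 22.2 peaks per Mb (11.1 to 39.7). Mef2, which encodes a main activator of muscle genes, held 3 of 107, 81.9 and 58.6, the last near the lowest signal of all. Of the axon guidance and adhesion list 13 of 36 were hosts, yet these genes are long, and their 26 peaks came to 15.9 per Mb (10.4 to 23.3), the value of all eligible DNA. The tx gene itself held no such peak.

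At the low end stood ion channel genes, with 4 hosts of 26 and 5.20 peaks per Mb (1.42 to 13.3), an interval below 15.9. These genes had a median of 25.1 kb of eligible DNA, and 15.9 is not matched to their intron order or distance to a TSS. Their peaks were weak, and the strongest, in the potassium channel gene Elk, had a signal of 75.8. Segmentation and Hox genes had 2 hosts of 15, Ubx and Abd-B, and 8.54 per Mb (1.03 to 30.8). Ribosomal protein genes held none in 13 genes, whose eligible DNA was so short that the upper bound of the interval, 1132 per Mb, gives no limit of use.

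**Figure D4:**
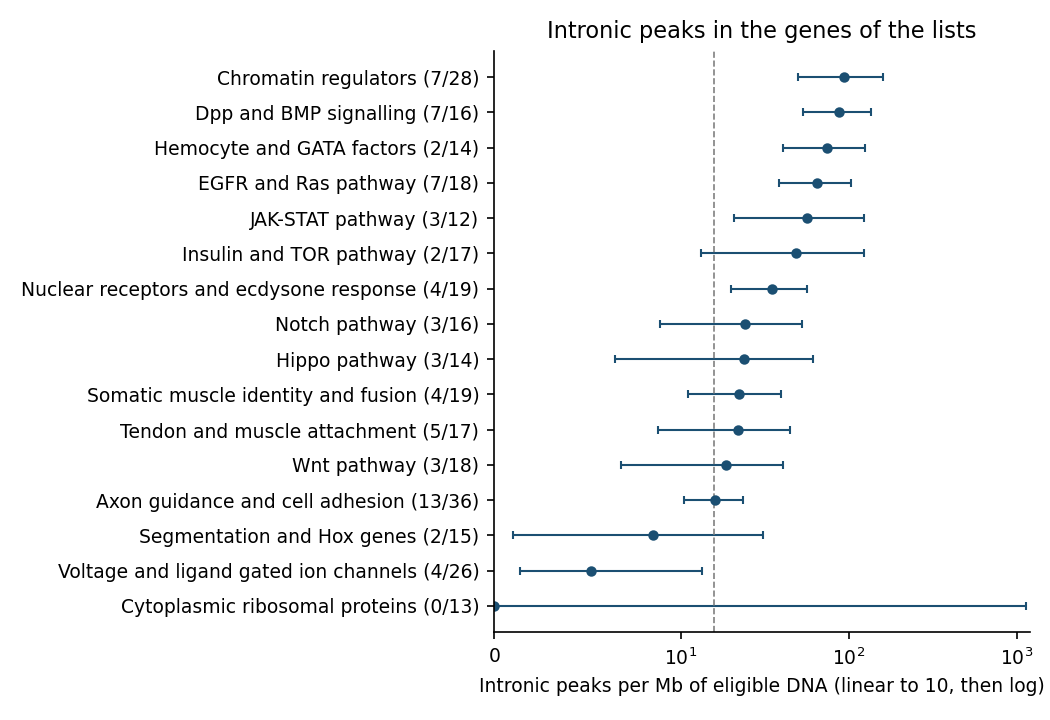
Intronic peaks per Mb of eligible DNA in each of 16 gene lists, with exact Poisson 95% intervals; the horizontal axis is linear to 10 and logarithmic above, and the numbers in parentheses are hosts of genes with eligible DNA. The dashed line is the value of all eligible DNA, 15.9, which is not matched for intron order or distance to a start site. The intervals of 6 lists lie wholly above it and that of the ion channels wholly below. The lists were chosen with earlier results of these data in view, so these positions are a description, and no list was tested.

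The peaks farthest from any coding TSS were few and mostly of middling strength. The farthest lay 49825 bp away in the sixth intron of hth, the homeobox gene homothorax, with a signal of 60.6 and ranks of 4948 and 2438. Next came jing at 44648 bp, mamo at 42304, CG42238 at 40574, ed, the adhesion protein Echinoid, at 39348, kirre at 36612, Snoo, a Ski family corepressor, at 34925, kirre again at 33605, CG43759 at 32172 and side at 30253. The strongest of these 10 was that of Snoo, with a signal of 148 and ranks of 742 and 610. The 33 peaks beyond 20000 bp had a median signal of 80.7, and 23 of them were in the top 3102 of both replicates (69.7%, interval 52.7 to 82.6%), against 65.2% of all peaks.

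The X chromosome held more of these peaks than its share. It had 195 of the 725 (26.9%) on 19.3% of the eligible DNA, or 22.1 per Mb (19.1 to 25.4), while the autosomes together had 14.4. Replicate 1 alone gave 20.4 per Mb on X and 14.6 on autosomes, a ratio of 1.39, and replicate 2 alone 24.9 and 15.2, a ratio of 1.64. In first introns X had 33.7 per Mb (27.04 to 41.4) and the next highest arm, 2R, had 32.1 (25.4 to 40.1). In all further introns X had 17.1 (14.02 to 20.7), and the next highest arm, 2L, had 11.1 (8.31 to 14.5). The intervals of X and the next highest arm thus overlapped in both cases. In further introns the interval of X lay above those of 2R (7.22 to 12.7), 3L (7.02 to 11.96) and 3R (6.08 to 9.89). In first introns it overlapped that of every other arm. The embryos were of mixed sex and males have a single X, and what copy number and the control add to these densities was not tested. Chromosome 4 held none in 0.357 Mb, which has an upper bound of 10.3 per Mb.

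At the summit the DNA was rich in A and T. Windows of 50 bp to each side of the 725 summits had a mean GC content of 34.0% (SD 7.12 over peaks), and windows 500 bp to either side 41.3%. All eligible windows had 40.2% (SD 9.17). Replicate 1 alone gave 34.4% and replicate 2 alone 35.1%. Promoter peaks dipped too, from 45.5% in flanks to 37.1%.

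E-boxes were about as frequent at these summits as around them. A CANNTG was found within 50 bp of 287 summits (39.6%, interval 36.1 to 43.2%). It was in 41.4% of windows 500 bp to either side, in 40% of 433298 eligible windows of the same width and at 37.8% of promoter summits. Eligible windows weighted to the GC content of the peaks gave 35.1%, just under the interval of the summits. The replicates alone gave 39.5% and 39.4%. Of the E-box classes CATATG was present at 36 summits (4.97%, interval 3.61 to 6.80%) and in 3.66% of flank windows, and CAGCTG at 23 (3.17%, 2.12 to 4.72%) and in 5.03%. Eligible windows weighted to the GC content of the peaks held CAGCTG in 2.27%, a share within the interval of the summits, so that the summits lay below the flanks but not below that base. An E-box is short, and its absence from a window says only that these letters are not there.

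Words of other factors varied more. TGTTTAC, a word bound by forkhead factors, was present at 35 summits (4.83%, interval 3.49 to 6.64%), in 2.14% of flanks, 2.14% of eligible windows and 3.43% of promoter summits. TATCGATA, the word bound by DREF at promoters of replication genes, occurred at 1 intronic summit (0.138%, interval 0.0244 to 0.777%) and at 4.02% of promoter summits. Flanks held it in 0.0690% and eligible windows in 0.191%, both within the interval of the intronic summits. CCGGAA, of ETS factors, stood at 3 (0.414%, 0.141 to 1.21%) against 2.48% of flank windows. Eligible windows weighted to the GC content of the peaks held CCGGAA in 1.56% and TGTTTAC in 2.53%, so both words lay on the same side of that base as of the flanks. GGCGNC, a word of the Smad protein Mad, was at 4.83% of intronic summits (3.49 to 6.64%), against 11.5% of flanks but 4.39% of windows so weighted.

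The word CACTG was more frequent in these peaks than around them, and more so beside the summit than on it. Searched on both strands, it stood 40 to 110 bp to the left or right of 338 of the 725 summits (46.6%, interval 43.0 to 50.3%). Windows of the same shape 500 bp away held it in 19.8% of cases, and 433276 windows of that shape over eligible DNA in 19.99%, or 18.6% when weighted to the GC content of the peaks. It was on both sides in 88 peaks, on the left in 218 and on the right in 208. Within 25 bp bins the number of matches rose from 36 at 175 to 199 bp right of the summit to 96 at 75 to 99 bp, and was 49 in the 25 bp from the summit on. Within 50 bp of the summit it stood at 186 peaks (25.7%, interval 22.6 to 29.0%), against 15.2% of flanks. Both replicates alone had this shape: replicate 1 gave 43.4% (39.8 to 47.0%) beside the summit and 19.4% in flanks, and replicate 2 gave 43.8% (40.4 to 47.4%) and 19.6%. E-boxes searched in the same way were at 51.0%, with 51.0% in flanks.

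**Figure D5:**
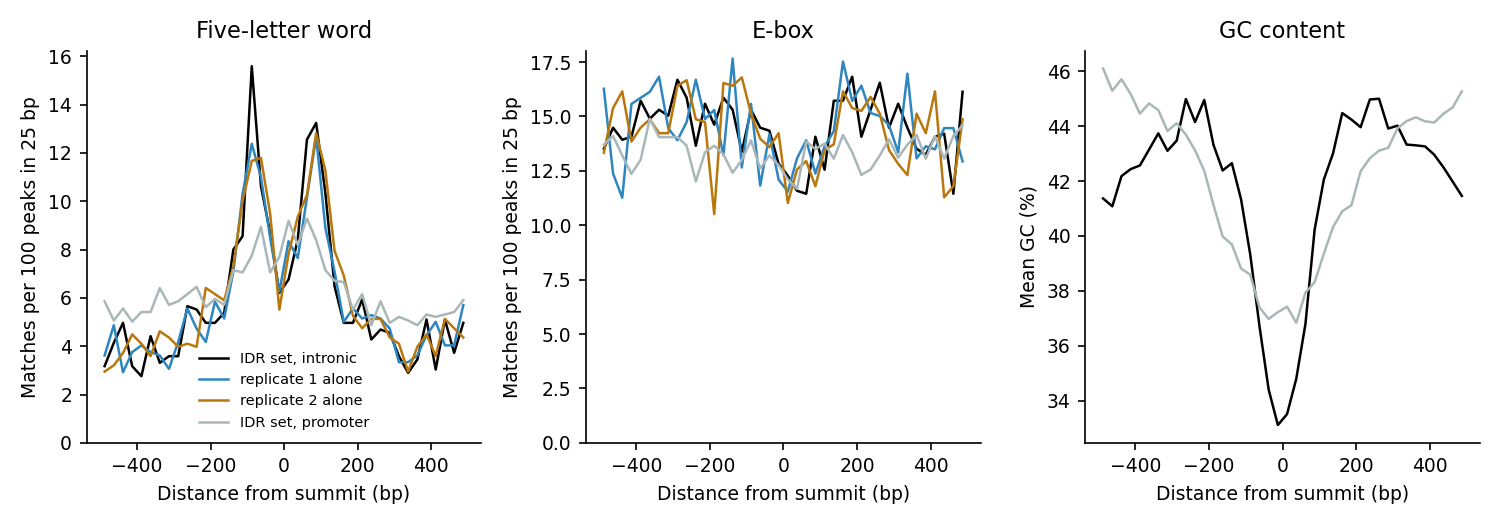
Matches per 100 peaks in bins of 25 bp around the summit for the 5-letter word (left) and the E-box (middle), and mean GC content in percent (right), against distance from the summit in bp. The 5-letter word has 2 maxima to either side of the summit in the intronic peaks of the optimal set and of each replicate alone, 15.6 and 13.2 matches per 100 peaks in the set, while the E-box has none and GC content is lowest at the summit.

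Longer forms of the word, which hold it on one strand or the other, were searched too. CACTGTA stood in the same side windows of 68 intronic peaks (9.38%, interval 7.47 to 11.7%), against 1.45% of flanks and 1.17% of eligible windows, and in 4.07% (3.29 to 5.03%) of promoter peaks. CAGTGCA stood in those of 63 (8.69%, 6.85 to 10.96%), against 1.86% of flanks and 2.21% of eligible windows. Among intergenic peaks CAGTGCA was at 14.8% (11.2 to 19.5%) and CACTGTA at 6.01% (3.78 to 9.41%). For the 5-letter word itself intergenic peaks had 46.3% (40.6 to 52.1%), as intronic peaks did, and promoter peaks 35.4% (33.3 to 37.5%), with 24.0% in their flanks. The words and the distance of 40 to 110 bp were chosen after the profile around these summits had been seen, so these shares are a description and carry no test. Which protein, if any, reads the word was not tested, and CACTG is not an E-box.

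Peaks just inside and just outside the distance rule had these values. Up to 100 bp beyond the limit of 1000 bp there were 29 intronic peaks, with a median signal of 96.5, and 22 of them were in the top 3102 of both replicates. Up to 100 bp short of it there were 35 intronic summits, with a median of 93.7, of which 25 were. Of the 725 peaks, 33 had a start site of a noncoding gene within 1000 bp (4.55%, interval 3.26 to 6.32%), where 2.19% of the eligible DNA does.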

How the data were processed

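The authors deposited ChIP-seq peak lists on dm6, per the labels, as relaxed lists of 30000 peaks for each of 2 replicates and as 1 optimal IDR set. Which aligner and caller made them is not given in the sources used here. Read depth is unknown. Each peak has a signal value that the authors deposited. It is their own, is never negative, and served only to order peaks and describe them within 1 list. Other columns and lists were not used. The summit was the interval's start plus the deposited offset. The annotation was Ensembl release 115 (BDGP6.54), and bases were read from the RefSeq genome of Release 6.

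The host was the gene with an intron over the summit, protein-coding genes first, then the one whose canonical transcript has that intron, then the shorter one. Intron order and length came from its canonical transcript, and for 92 peaks from the longest transcript with an intron there. Matches to a replicate were within 100 bp. E-boxes and GC content were read within 50 bp of the summit. Shares carry 95% Wilson intervals, peaks per Mb exact Poisson intervals and medians order-statistic intervals, and all of them cover counting only. Python 3.11.15, numpy 2.4.6, pandas 2.3.3, scipy 1.17.1 and matplotlib 3.10.9 were used. Class and intron order were checked on randomly drawn positions against the same annotation. The word search was checked on random sequences with a planted word. The other steps were not checked in this way.

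Genes named are hosts of the 20 strongest peaks, hosts with 4 or more peaks (at most 15, ties kept), up to 4 hosts per list with the strongest peak, and hosts of the 10 peaks farthest from a TSS. Further genes of a list, cbt and tx were named after their values were seen. Members, lists and motifs were chosen with earlier results of these data known. Of 358 list entries 343 matched by symbol, 9 by synonym and 6 through their current symbols, the last assigned after the values had been seen. With 1 group and peaks that are not replicates, no test was made. Nothing in the labels says how the biological replicates were raised. Alternatives varied the TSS distance, the TSS set, the summit, the strength limit, the replicate, the transcript, the match and the window.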

Additional observations from a re-analysis of the deposited data

How the results depend on the processing

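Of 80 values recomputed under alternatives, 61 stayed within 1.5 times the count or within the interval of the value. For GC content the limit was no such interval but the SD between the 2 replicates' values, 0.502, to either side. Those 2 replicate values were themselves among the alternatives. All values stayed under the 3 alternatives chosen after seeing the data, and a shift of 1 bp could hardly move any, so the tally flatters stability. The 1551 strongest peaks of the set had 331 intronic peaks in 261 hosts, 91.5% of them in the top 3102 of both replicates, with 33.4% GC; it has fewer peaks by construction. With a TSS distance of 500 bp the first-intron share was 57.2% and the median intron 11040 bp, and with 2000 bp 47.8% and 14781 bp. Counting a first intron of any transcript gave 67.9%, where 40.8% of the eligible DNA is such an intron. The shortest intron over the summit gave a median of 11376 bp. Matching within 50 bp, within 200 bp or by overlap moved the share in both replicates to 52.8%, 70.3% and 71.0%. Windows of 25 and 100 bp each side gave E-boxes at 20.8% and 65.0% and a GC content of 33.3% and 36.1%. Using each replicate's own 3102 strongest peaks gave 719 to 780 peaks, 464 to 502 hosts, first-intron shares of 51.2 to 54.0% and GC of 34.4 to 35.1%. Of these intronic peaks, 64.4% of those of replicate 1 and 59.7% of those of replicate 2 were matched in the other replicate's top 3102. The 3 alternatives chosen after seeing the data (no transposon annotation, a summit 1 bp to the left, protein-coding hosts alone) gave 711 to 726 peaks. For the moved values the cause was not tested where the alternative's construction does not show it. No paired analysis was possible because there is 1 group. Read depth is unknown, so how many weak intronic sites the lists miss cannot be given.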

Other observations

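Of the 725 intronic peaks, 98 had another peak of the optimal set within 1000 bp (13.5%), against 17.3% of promoter peaks and 15.9% of all peaks. The smallest spacing inside a host with 5 or more intronic peaks was 203 bp, in Tlk. Hosts of a noncoding kind held 14 intronic peaks in 1.07 Mb of eligible DNA (13.1 per Mb, exact Poisson interval 7.16 to 22.0). The 33 peaks in genes with a single intron came to 33.7 per Mb (23.2 to 47.4). The 59 in last introns came to 14.8 per Mb (11.3 to 19.2), but single introns count as last introns, so these 59 include those 33.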
